A study of Arabidopsis thaliana with 8 samples.

Results

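The probe sets described here are those that the Affymetrix ATH1 array of Arabidopsis thaliana carries for genes of the chloroplast and the mitochondrion. They were taken as a block of 150 consecutive probe set numbers, out of 22746 probe sets that are not array controls. By the platform's gene annotation, 77 of the 150 read chloroplast genes (69 a single gene, 8 several loci) and 13 read mitochondrial genes (12 a single gene, 1 several genes). A further 5 are assigned to nuclear AT2G07 loci, which lie in a region of chromosome 2 that holds an insertion of mitochondrial DNA. Another 10 are assigned to other nuclear loci of chromosome 2, so the block is not purely organellar, and 45 have no gene listed. Probe sets without a single listed gene are given by their identifier. Of the 13 mitochondrial probe sets, 8 carry a symbol found on the RefSeq mitochondrial genome, and the other 5 were placed by their symbol alone.

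All 8 arrays came from shoots of ga1-3 plants, a mutant of the Ler accession that makes too little gibberellin, at an age of 8 days. Seedlings grown on sucrose-containing medium in continuous light were sprayed with water (4 arrays) or with 2 µM GA4, a bioactive gibberellin (4 arrays), and the shoots were cut 1 h later. The study set out to find early gibberellin-responsive genes. Replicates were numbered 1 to 4 in both groups, and no wild-type or unsprayed plants were among the samples, so every value belongs to the mutant and the water arrays were the control.

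Chloroplast genomes of land plants encode the core subunits of the photosynthetic complexes, the large subunit of Rubisco, part of the ribosome and the core of a bacterial-type RNA polymerase. Most other chloroplast proteins, including the sigma factors that guide this polymerase and a phage-type polymerase that transcribes a distinct group of chloroplast genes, are encoded in the nucleus. Chloroplast genes lie largely in clusters that are transcribed together and then cut, spliced and edited. Plant mitochondrial genomes encode some subunits of the respiratory chain and proteins that attach haem to cytochrome c. Stable organelle transcripts mostly lack the long poly(A) tails from which the labelling protocol used here starts cDNA synthesis. In whole shoots, fewer green cells and less organelle RNA per cell cannot be told apart.

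Signals of the chloroplast probe sets were high. A probe set was tested when its mean log2 signal over the 8 arrays was at least 6.78 (110 units on the linear scale of the deposited signals), which kept 13648 of the 22746 and 109 of the 150. All 77 chloroplast probe sets passed, with mean log2 signals from 8.53 to 14.36 and a median of 11.88, against a median of 8.79 over all tested probe sets. Of the 13 mitochondrial probe sets 8 passed, with a median of 8.47 and a range of 7.24 to 10.54. Of those without a listed gene, 16 of 45 passed, as did 2 of the 5 AT2G07 loci and 6 of the 10 other nuclear loci. The probe sets that passed are therefore the brighter part of the mitochondrial and unlisted groups. Probe sets bind with different strength, so these signals do not rank the transcripts of different genes by amount.

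Within each chloroplast complex the signals spanned several log2 units. In photosystem II the mean was 13.96 for psbM, a small subunit, and 10.06 for psbN, which is needed to assemble the complex. In photosystem I it was 14.13 for psaB, a reaction centre protein, and 10.62 for psaC, which carries iron-sulphur clusters. In the cytochrome b6f complex, which passes electrons between the photosystems, petB (cytochrome b6) was at 14.00 and petD (subunit IV) at 9.83. In the ATP synthase, atpB (the beta subunit) was at 14.36 and atpI (subunit a) at 8.90. The NDH complex, a chloroplast relative of respiratory complex I that serves cyclic electron flow, ran from 13.84 for ndhI to 8.65 for ndhF. In the plastid-encoded RNA polymerase rpoA was at 12.44 and rpoB at 8.62, and among ribosomal proteins rps4 was at 14.13 and rps15 at 9.16. Of the mitochondrial genes, ccb382, which serves cytochrome c maturation, was at 10.54 and nad4, a complex I subunit, at 9.49. Below the filter lay nad7 at 4.42, matR, a splicing maturase, at 2.70, ccb203 at 4.93 and cox2 at 6.38, and these were not tested.

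The arrays of replicates 1 and 2 differed from those of replicates 3 and 4 in quality measures. For actin, the ratio of 3′ to 5′ signal, which rises as RNA shortens or cDNA synthesis stops early, ran from 2.72 to 6.81 on the first 4 arrays and from 1.5 to 1.76 on the others. GAPDH ratios ran from 2.13 to 5.43 and from 0.958 to 1.14. Hybridisation controls, RNAs added to each sample, reached 2.87 (GA4 replicate 1) and 1.71 (GA4 replicate 2) times their average over the water arrays, where the remaining 6 arrays spanned 0.941 to 1.16. The control probe set for 5S rRNA, an RNA without a poly(A) tail, read 1260 and 513 units on GA4 replicates 1 and 2 and 145 to 332 on the other 6. The control probe set for 25S rRNA followed it only in part. It read 22.7, 23.0, 91.2 and 69.4 in water replicates 1 to 4 and 74.4, 21.4, 119 and 68.9 in GA4. GA4 replicate 1 was thus above its water partner, and GA4 replicate 2 was not. Both arrays of replicate 3 read higher than GA4 replicate 1. The trimmed mean signal was 500.04 to 500.05 on all 8 arrays.

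In GA4-sprayed shoots chloroplast signals were above those of water-sprayed shoots in replicates 1 and 2 and close to them in replicates 3 and 4. The median log2 signal of the 77 chloroplast probe sets in water was 12.28, 11.12, 11.40 and 12.14 in replicates 1 to 4, and in GA4 it was 12.97, 11.97, 11.28 and 12.12. The groups overlapped, since water replicates 1 and 4 lay above GA4 replicates 2 and 3. Between arrays of the same number, the median difference of GA4 minus water over these probe sets was 0.81, 0.61, −0.11 and −0.00 log2 units for replicates 1 to 4. GA4 was higher for 73, 67, 22 and 38 of the 77, and for 7103, 6614, 6952 and 6817 of all 13648 tested. The same medians over all 13648 tested probe sets were 0.02, −0.02, 0.01 and −0.00. Over the 1930 other probe sets at or above the lower quartile of the chloroplast levels they were −0.07, 0.04, −0.00 and −0.02. Chloroplast probe sets made up 5.30% of the summed signal on GA4 replicate 1 and 3.22% on water replicate 1, 2.84% and 2.17% in replicate 2, 2.12% and 2.24% in replicate 3, and 2.81% and 2.80% in replicate 4.

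The hybridisation controls moved with these differences. Their GA4 minus water difference was 1.61, 0.82, 0.07 and 0.08 log2 units in replicates 1 to 4, and 5S rRNA was at 2.19, 1.82, 0.18 and −0.04. Their part in the chloroplast differences, and that of the 3′ to 5′ ratios, was not tested. When each array was rescaled on these controls, a setting chosen after seeing the data, the median difference of the chloroplast probe sets turned to −0.33 while that of all tested probe sets was −0.64. Under the deposited scaling these medians were 0.31 and 0.01. That rescaling moves all probe sets together. The distance between the chloroplast median and that of all tested probe sets is therefore kept by construction and is no test. Values after this rescaling are read below against −0.64, not against 0.

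**Figure D1:**
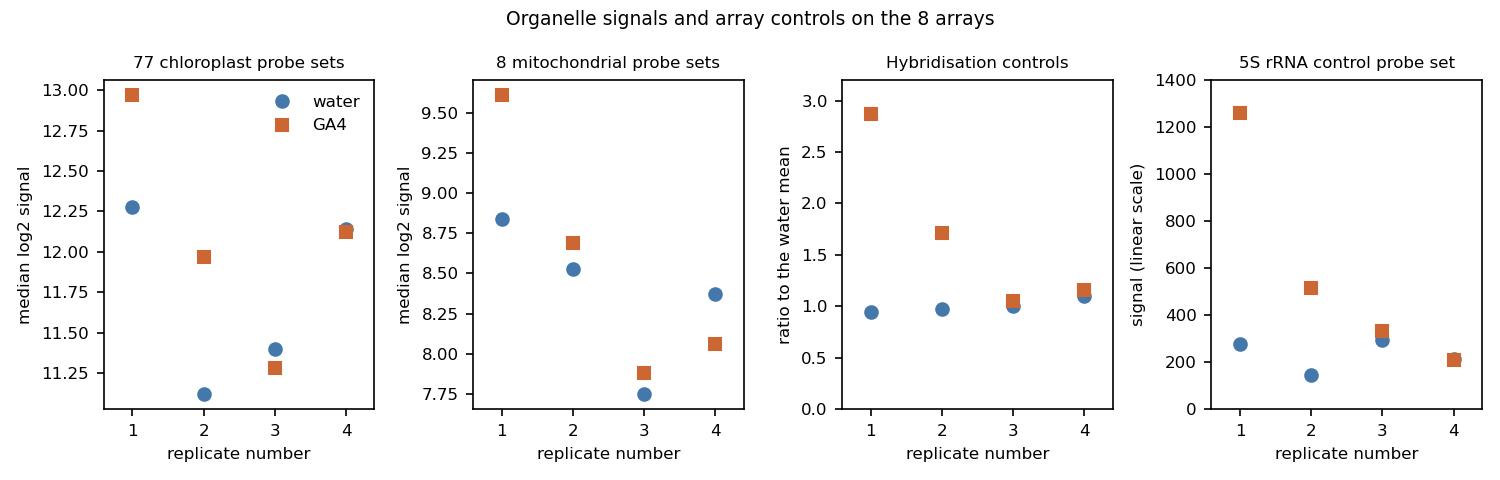
Median log2 signal of the 77 chloroplast and 8 tested mitochondrial probe sets, the hybridisation controls as a ratio to the water mean, and the 5S rRNA signal in units, against replicate number (circles, water; squares, GA4; 1 point per array, the first 2 vertical axes do not start at 0). The chloroplast median was 12.97 against 12.28 in replicate 1 and 12.12 against 12.14 in replicate 4, and the controls were highest on GA4 replicates 1 and 2.

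No organelle probe set passed the test of GA4 against water. In the limma fit without pairing, with Benjamini-Hochberg adjustment over all 13648 tested probe sets and a threshold of 0.05, 0 of the 109 passed, where 0.0147% of all tested did (2 probe sets). At an unadjusted p under 0.05 there was 1 of 109, psbM, where 2.65% of all tested lay. With the replicate number as a block 0 of the 109 passed, where 0.293% of all tested did (40 probe sets). At an unadjusted p under 0.05 the blocked fit then held 39 of the 109, where 11.8% of all tested lay. Of these, 34 were higher in GA4 (5.17% of all tested were) and 5 lower (6.63%). Chloroplast probe sets made up 31 of the 34 and 2 of the 5. For 0 of the 109 did the GA4 and water signals not overlap, where 2.29% of all tested had no overlap.

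Of the 77 chloroplast probe sets, 9 (11.7%) were higher in GA4 in 4 of 4 pairs, close to the 9.64% of all tested. Another 3 were lower in 4 of 4, where 10% of all tested were. The agreement lay within replicates 1 and 2, where 66 of 77 were higher in both pairs (31.7% of all tested were). In replicates 3 and 4, 13 of 77 were higher in both (28.3% of all tested). The median fold change over the 4 pairs, 0.31, was smaller than the SD of the 4 pair medians, 0.45. Without GA4 replicate 1 it was 0.02. With array weights in limma, which give less weight to arrays that vary more, it was 0.06. Under those weights ndhG, petD and atpH, described below, were at 0.10, 0.03 and 0.33, and 29 of 37 named members shrank by more than 1.5 times. With replicates 1 and 2 alone the median was 0.68, against −0.06 with replicates 3 and 4 alone.

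Over all tested probe sets 51.5% were higher in GA4 on average, the share to set beside the counts per complex that follow. Photosystem II, which splits water, had 15 of 15 genes higher on average, with 0 past the test. These are its core genes and psbN, which is needed for assembly. The median was 0.46 (−0.18 after rescaling on the hybridisation controls, against −0.64 over all tested). Their pair medians were 1.14, 0.96, −0.12 and −0.06 in replicates 1 to 4. The gene with the smallest unadjusted p was psbM, at 13.51, 13.27, 13.78 and 13.81 in water replicates 1 to 4 and at 14.86, 14.81, 13.85 and 13.78 in GA4. GA4 replicates 1 and 2 stood above all other arrays, and GA4 replicates 3 and 4 lay close to the water arrays, so the groups overlapped. The difference was 0.73 ± 0.27 (log2 mean and SE, 4 arrays per group, limma adjusted p = 1.00). For psbT, a small subunit at the dimer interface, the difference was 0.88 ± 0.46, with pair differences of 1.71, 1.78, −0.12 and 0.16. For psbN it was 0.81 ± 0.59, with 2.33, 1.35, −0.35 and −0.09. Both genes share the sign of psbM in replicates 1 and 2.

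The reaction centre genes psbA (the D1 protein, which is replaced continually in light) and psbD (the D2 protein) varied more between replicates than between treatments. The psbA probe set read 12.85, 8.57, 13.56 and 13.74 in water and 13.86, 10.15, 13.13 and 13.68 in GA4. Both arrays of replicate 2 were lowest, and the groups overlapped (difference 0.52 ± 1.16, adjusted p = 1.00). For psbD the values were 11.82, 10.91, 11.19 and 12.53 in water and 12.71, 11.57, 10.86 and 12.41 in GA4. Here both arrays of replicate 4 lay near GA4 replicate 1, and the difference was 0.27 ± 0.44.

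Photosystem I and its assembly factors had 7 of 7 genes higher on average, 0 past the test, a median of 0.35 (−0.30 after that rescaling) and pair medians of 1.03, 0.64, −0.08 and 0.05. The reaction centre gene psaA read 11.08, 9.34, 11.19 and 12.36 in water and 12.10, 10.15, 10.36 and 12.47 in GA4. Replicate 3 ran the other way from replicates 1 and 2, and the difference was 0.28 ± 0.68. Its partner psaB was at 0.10 ± 0.25 and psaC at 0.75 ± 0.69.

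The cytochrome b6f complex had 6 of 6 genes higher on average, 0 past the test, with a median of 0.48 (−0.16 after that rescaling) and pair medians of 1.15, 0.90, 0.06 and −0.02. The petD probe set read 10.59, 8.81, 9.15 and 8.85 in water and 12.62, 10.63, 9.25 and 8.76 in GA4, so only GA4 replicates 1 and 2 stood clear of their partners (difference 0.97 ± 0.76). Its neighbour petB, which is transcribed with it, read 14.09, 13.92, 13.80 and 13.93 in water and 14.70, 13.79, 13.82 and 13.94 in GA4. For petB only replicate 1 was apart, and the difference was 0.13 ± 0.20. The nuclear gene AT2G26500, a member of the probe set block that encodes the PetM subunit of the same complex, was at 0.76, 0.46, 0.04 and 0.02 in the 4 pairs (difference 0.32 ± 0.16, adjusted p = 1.00).

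The ATP synthase had 6 of 6 genes higher on average, 0 past the test, with a median of 0.39 (−0.25 after that rescaling) and pair medians of 0.84, 0.84, −0.11 and −0.06. The gene of the ring-forming subunit c, atpH, read 12.43, 11.12, 11.70 and 13.05 in water and 14.63, 13.20, 11.59 and 12.98 in GA4. GA4 replicate 3 lay below most water arrays, and the difference was 1.02 ± 0.59 (2.03-fold, adjusted p = 1.00). For atpB the difference was 0.17 ± 0.21 and for atpI it was 0.48 ± 0.51. The rbcL probe set, for the large subunit of Rubisco, read 11.39, 8.01, 10.42 and 10.84 in water and 11.66, 8.45, 10.31 and 10.96 in GA4. Like psbA, it had replicate 2 lowest in both treatments, and the difference was 0.18 ± 0.80.

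The NDH complex had 10 of 10 genes at or above 0 on average and 0 past the test, with a median of 0.44 (−0.21 after that rescaling) and pair medians of 1.00, 0.67, 0.02 and 0.06. Of the 10, 5 were higher in GA4 in 4 of 4 pairs (9.64% of all tested were): ndhD, ndhE, ndhF, ndhI and ndhJ. Apart from ndhF, each had a difference under 0.1 in replicate 3 or 4. In replicates 3 and 4 ndhI was at 0.02 and 0.05 and ndhJ at 0.03 and 0.16. There ndhD was at 0.09 and 0.26 and ndhE at 0.57 and 0.08. The ndhF probe set read 9.74, 9.35, 6.71 and 7.16 in water and 10.98, 10.34, 7.31 and 7.58 in GA4. Replicates 1 and 2 were higher than replicates 3 and 4 in both treatments, and each GA4 array lay above its partner. The difference was 0.81, with an SE of 0.94 unpaired and 0.16 with the block, and water replicate 3 lay below the filter level. Its adjusted p in the blocked limma fit was 0.0728, and that of ndhE, at 0.77 with a blocked SE of 0.18, was 0.125. For ndhG the pair differences were 2.12, 1.98, 0.15 and −0.08, and the mean of 1.04 ± 0.60 was the highest of all 77 chloroplast probe sets. For ndhC the difference was 0.30 ± 0.19 and for ndhI it was 0.19 ± 0.23.

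Of the 4 genes of the plastid-encoded RNA polymerase 3 were higher on average and 1 lower, with 0 past the test, and the median was 0.31 (−0.34 after rescaling on the controls). The rpoB probe set, for the beta subunit, read 9.42, 8.07, 7.44 and 7.59 in water and 11.57, 10.14, 7.07 and 7.65 in GA4. Replicates 1 and 2 were again apart, with a difference of 0.98 ± 0.90 over all 8 arrays. For rpoA it was 0.34 ± 0.31, higher in 4 of 4 pairs. The 5 remaining genes of known function had a median of 0.43, 5 of 5 higher and 0 past the test (−0.21 after that rescaling, against −0.64 over all tested). Among them accD, a subunit of acetyl-CoA carboxylase in fatty acid synthesis, was at 0.59 ± 0.50, matK, an intron maturase, at 0.43 ± 0.29, and clpP, a protease subunit, at 0.09 ± 0.27.

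The 15 genes of ribosomal proteins had a median of 0.11, with 11 higher, 4 lower and 0 past the test (−0.54 after that rescaling, against −0.64 over all tested). Their pair medians were 0.33, 0.17, −0.08 and 0.01. The members ran from rpl36, at −0.28 ± 0.56, to rps14, at 1.03 ± 0.85 (named after its value was seen). The rpl36 probe set read 12, 10.46, 12 and 12.66 in water and 11.37, 10.10, 11.94 and 12.60 in GA4. The rpl14 probe set read 11.86, 10.54, 9.39 and 10.14 in water and 11.59, 10.31, 9.15 and 10.10 in GA4. In both, each GA4 array was below its partner while the groups overlapped, and the rpl14 difference was −0.20 ± 0.57. For rps4 the difference was 0.27 ± 0.18 and for rps15 it was 0.34 ± 0.41. Probe set 244940_at, with several loci listed, was also lower in 4 of 4 pairs, at −0.38 ± 0.35.

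**Figure D2:**
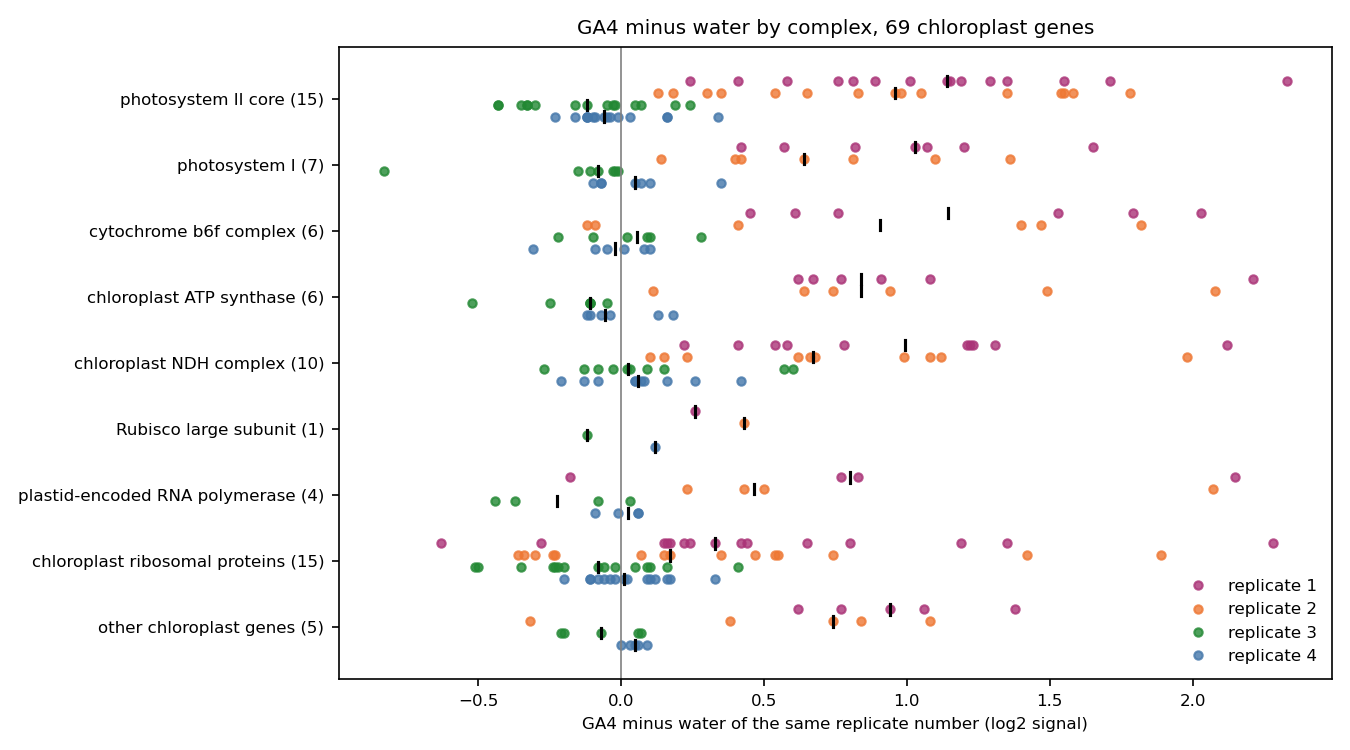
GA4 minus water of the same replicate number in log2 units (horizontal axis) for the 69 chloroplast probe sets with 1 gene, by complex with the number of genes in brackets; each point is a gene, colours mark replicates 1 to 4 and black bars are medians. Replicates 1 and 2 lie mostly to the right of 0 (photosystem II medians 1.14 and 0.96) and replicates 3 and 4 lie around it (−0.12 and −0.06).

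Along the plastid genome the differences of replicates 1 and 2 changed from gene to gene, also between genes that are transcribed together. The clusters described here were chosen after the values were seen, so no test is given. In the psbB cluster (psbB, psbT, psbH, petB and petD) the medians in replicates 1 to 4 were 1.55, 1.55, −0.12 and 0.01, but petB differed by −0.12 and petD by 1.82 in replicate 2. In the ndhH cluster, 7 genes that include psaC and ndhD, the medians were 1.22, 0.66, 0.02 and 0.07, with a range in replicate 1 of 0.22 to 2.12. In the ribosomal protein cluster, 7 genes that include rpoA, rpl36 and rpl14, they were 0.17, 0.15, −0.08 and −0.04, and in replicate 1 the genes ran from −0.63 to 0.83. In the atpA cluster of 5 genes they were 0.77, 0.94, −0.25 and 0.09. Its members atpH and rps2 were at 2.21 and 0.16 in replicate 1.

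**Figure D3:**
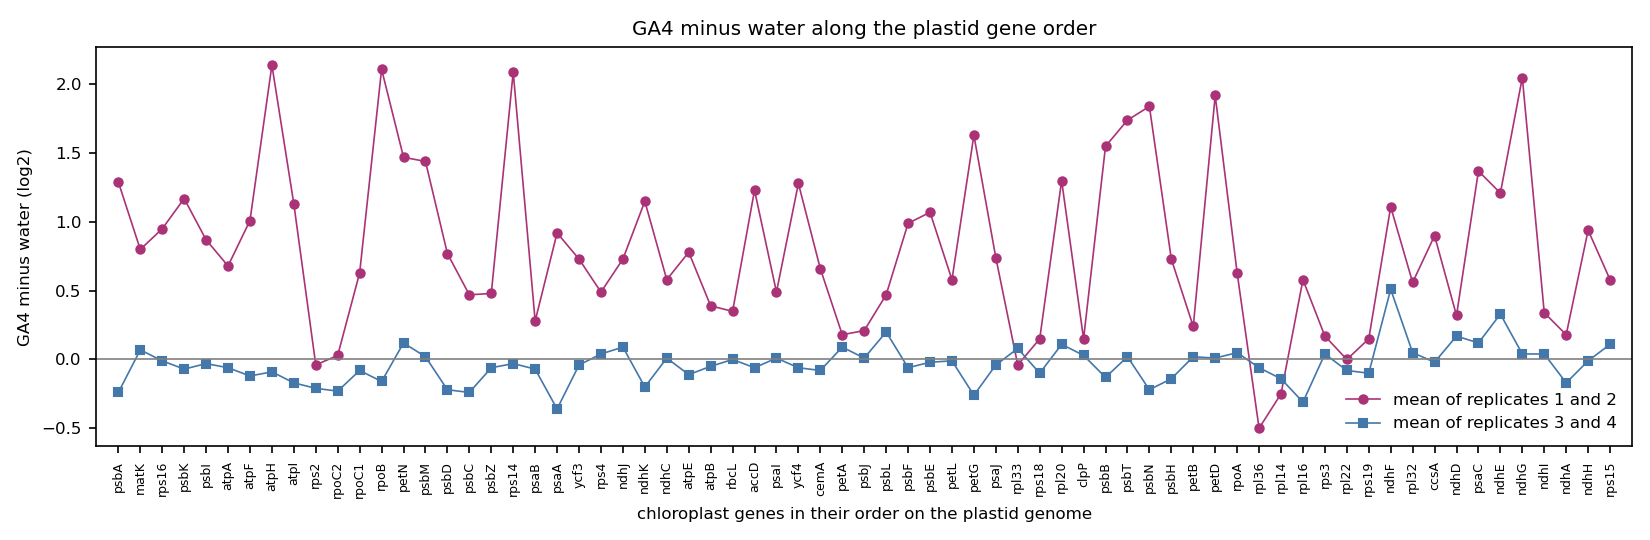
GA4 minus water in log2 units for chloroplast genes in their order on the plastid genome, as the mean of replicates 1 and 2 (circles) and of replicates 3 and 4 (squares); lines join neighbours in the order and carry no fit. The means of replicates 1 and 2 changed sharply between neighbours (petB 0.24, petD 1.92), and those of replicates 3 and 4 ran from −0.36 (psaA) to 0.51 (ndhF).

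The mitochondrial probe sets had no call in either fit. Of the 8 tested, 7 were higher on average (51.5% of all tested probe sets were) and 1 was lower, with a median of 0.20. Their pair medians were 0.65, 0.33, 0.01 and −0.34 in replicates 1 to 4. Without GA4 replicate 1 the median was −0.24. With array weights it was −0.23, so the direction turned in both. After rescaling on the hybridisation controls it was −0.45 and the median of all tested probe sets −0.64, a shift common to both. In complex I 3 of 5 genes were tested. The nad4 probe set read 10.92, 10.04, 8.65 and 8.34 in water and 10.83, 10.14, 8.32 and 8.68 in GA4, a difference of 0.01 ± 0.67. Replicates 1 and 2 were higher than 3 and 4 in both treatments, and the treatments did not separate. The nad6 probe set, named after its values were seen, was higher in 4 of 4 pairs (1.25, 1.33, 0.68 and 0.04). Its difference was 0.82 ± 0.56, and its water signal in replicates 3 and 4, 6.20 and 6.74, lay below the filter level.

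Of the 4 genes for cytochrome c maturation 3 were tested, with a median of 0.07. The ccb382 probe set read 10.95, 10.54, 10.23 and 11.13 in water and 10.85, 10.03, 9.86 and 10.74 in GA4. It was lower in 4 of 4 pairs with overlapping groups, at −0.34 ± 0.28 (adjusted p = 1.00, and 0.293 in limma's blocked fit). The orfX probe set, for a relative of bacterial TatC translocases, was at 0.28 ± 0.28. The ccb203 probe set lay below the filter and was not tested, with 6.73, 3.88, 3.55 and 3.85 in water and 7.88, 4.62, 5.22 and 3.68 in GA4.

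**Figure D4:**
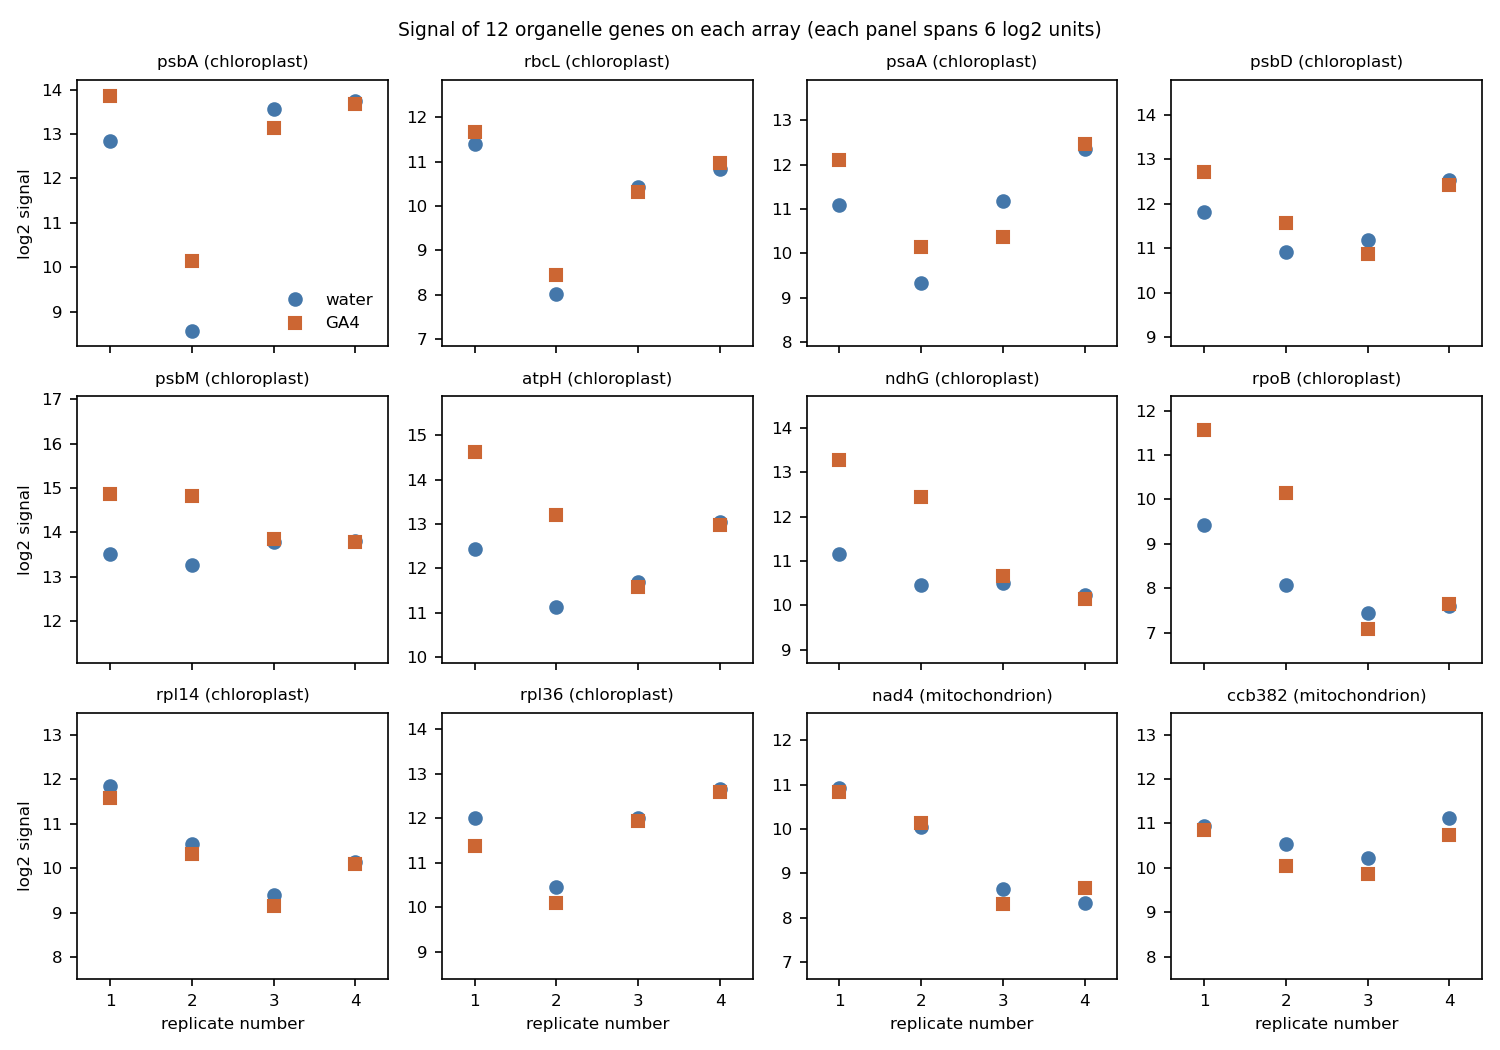
Log2 signal of 10 chloroplast and 2 mitochondrial genes on each of the 8 arrays against replicate number (circles, water; squares, GA4; every panel spans 6 log2 units). GA4 squares lie above water circles in replicates 1 and 2 for psbM, atpH, ndhG and rpoB, while psbA and rbcL are lowest in replicate 2 in both treatments.

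Organelle signals varied between replicate numbers more than other probe sets did. The range of the 4 replicate means (each over a water and a GA4 array) had a median of 1.41 log2 units for the chloroplast probe sets, 1.67 for the mitochondrial ones and 0.64 for the 13539 tested probe sets outside the block. It exceeded 1 for 75.3% of the chloroplast probe sets and 21.8% of those outside. Replicate 1 was highest for 65 of the 77 (84.4%, against 30.4% outside) and replicate 3 lowest for 49 (63.6%, against 32%). Among the chloroplast probe sets the widest range was that of psbA, 4.35, followed by ndhF at 3.35, rbcL at 3.29 and rpoB at 3.24. The order of replicates was not the same for all genes, since replicate 2 was lowest for psbA and rbcL and replicates 3 and 4 for ndhF and rpoB. Of the mitochondrial probe sets, 7 of 8 were higher in both replicates 1 and 2 than in both replicates 3 and 4, as were 38 of the 77 chloroplast ones (49.4%) and 44.1% of those outside.

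In replicates 1 and 2 the dimmer chloroplast probe sets had the larger differences. The level was taken from replicates 3 and 4, which share no array with replicates 1 and 2. For the 25 dimmest probe sets the median difference was 1.35 in replicate 1 and 1.30 in replicate 2, for the middle 26 it was 0.77 and 0.48, and for the 26 brightest it was 0.65 and 0.39. The correlation of level and difference across the 77 probe sets was −0.46 (Pearson) and −0.41 (Spearman), as a description across genes that share arrays and transcription units. Across the same 77, the differences of replicates 1 and 2 correlated at 0.85 (Spearman 0.82) and those of replicates 3 and 4 at 0.03 (−0.04). The mean differences of the 2 sets of replicates correlated at 0.07 (0.02). Whether these correlations are particular to chloroplast probe sets was not tested.

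**Figure D5:**
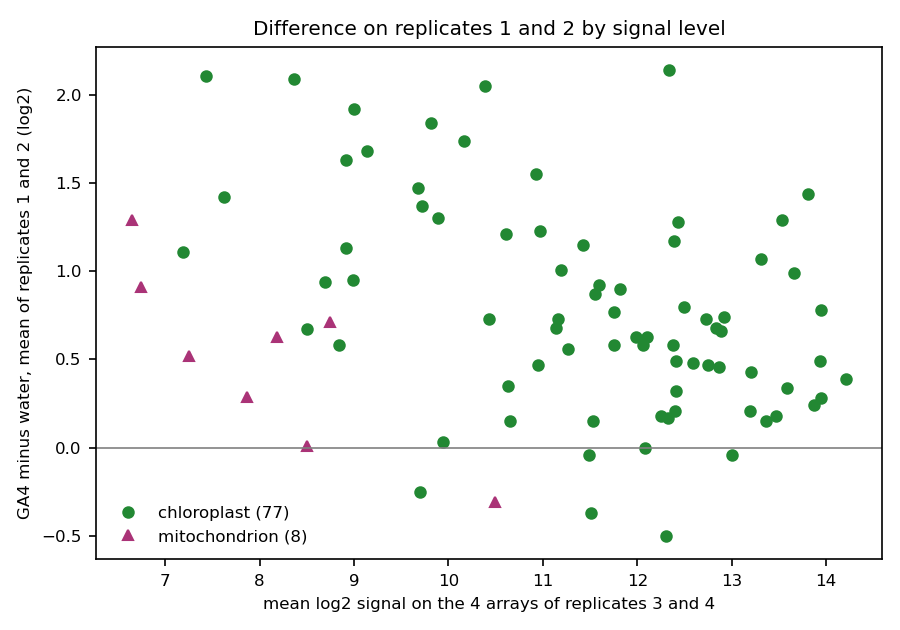
Mean GA4 minus water in replicates 1 and 2 in log2 units (vertical axis) against the mean log2 signal on the 4 arrays of replicates 3 and 4 (horizontal axis), with 1 point per tested probe set (circles, 77 chloroplast; triangles, 8 mitochondrial). Differences near or above 2 occur over a wide range of levels, and across the chloroplast probe sets the correlation is −0.46.

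The treatment difference itself was compared between replicates 1 and 2 and replicates 3 and 4 by limma's interaction term over the 13648 probe sets. These sets of replicates were chosen with the values known. In the fit that ignored the pairing 0 of the 109 passed, where 0 of all tested passed (0.0%). At an unadjusted p under 0.05 there were 21 of the 109, 17 of them chloroplast probe sets, where 7.01% of all tested lay. The smallest p of all tested probe sets was that of psbM, whose difference in the later numbered replicates minus that in the earlier ones was −1.42 ± 0.20 log2 units (adjusted p = 0.294 in limma). For ndhG the interaction was −2.02 ± 0.43, for rpoB −2.26 ± 0.68 and for atpH −2.24 ± 0.87, with adjusted p of 0.631, 0.683 and 0.683.

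With the replicate number as a block, a fit added after seeing the data, the GA4 difference was smaller in replicates 3 and 4 than in replicates 1 and 2 for 21 of the 109 (adjusted p under 0.05). All 21 were chloroplast probe sets, 27.3% of the 77, where 0.403% of all tested passed (55 probe sets, 24 smaller and 31 larger). At an unadjusted p under 0.05 there were 68 of the 109, where 14.1% of all tested lay. The interaction was −2.24 ± 0.16 log2 units for atpH (SEs here are those of the blocked fit, limma adjusted p = 0.000972), −2.02 ± 0.19 for ndhG, −1.92 ± 0.21 for petD and −2.26 ± 0.26 for rpoB. Photosystem II gave 8 of the 21: psbA, psbB, psbE, psbF, psbK, psbM, psbN and psbT. For psbB, a chlorophyll-binding core antenna protein, it was −1.68 ± 0.18, and for psbA −1.53 ± 0.22 (adjusted p = 0.02). After quantile normalization 17 of the 109 passed (0.293% of all tested). After rescaling on the hybridisation controls, where the median interaction of all tested probe sets was 1.14, rpoB (−1.13) was the 1 member that passed with a smaller difference, 12 passed with a larger one, and 50.1% of all tested passed. Without replicate 1, 2, 3 or 4 in turn, the median interaction of the 77 chloroplast probe sets was −0.63, −0.94, −0.68 and −0.86. It was −0.74 with all replicates. Over all tested probe sets the medians were 0.02, −0.01, 0.01 and −0.0 without each replicate. Each of these fits leaves 1 pair in a set of replicates. The spread within that set is then not measured, so no counts are given. The blocked interaction fit with all replicates has 2 residual degrees of freedom, so it leans on the spread shared across probe sets. The sets of replicates were chosen with these values known, so the adjusted p describe the split and give it no independent support. On simulated data this fit recovered 0 of 100 changes of 1 and of 2 log2 units with the residual SDs of the blocked fit. With its own shrunken SDs it recovered 48 and 96 and gave 14 false calls. The sets of replicates differ also in the 3′ to 5′ ratios, which were higher in GA4 than in water within replicates 1 and 2. The hybridisation controls and 5S rRNA were raised on GA4 replicates 1 and 2. The part of these measures in this result was not tested.

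The nuclear members of the block gave no call. The 6 tested nuclear loci outside the AT2G07 region had a median difference of 0.01, with AR781 at −0.40 ± 0.37, and the 2 tested AT2G07 loci were at 0.24 (AT2G07751) and 0.18 (AT2G07708). The 16 tested probe sets without a listed gene had a median of 0.08 and ran from −0.45 to 0.67. The lowest was 245027_at, at −0.45 ± 0.25, with 9.15, 9.51, 8.97 and 9.73 in water and 8.33, 8.85, 9.14 and 9.24 in GA4, which overlapped. Probe sets 245038_at and 245043_at were at −0.23 ± 0.31 and −0.06 ± 0.16.

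Of 82 nuclear genes for organelle functions that were listed for comparison, 8 had a tested probe set with a single gene, and 0 passed in either fit. These 8 encode light-harvesting proteins and subunits of the photosystems and the ATP synthase, so they do not stand for the other functions listed. The highest difference was that of PSBW, a photosystem II subunit, at 0.30, with pair differences of 0.99, 0.43, −0.05 and −0.15. The lowest was that of LHCB4.2, a light-harvesting protein, at −0.07. LHCB4.1, LHCB4.3, PSAN, PSAE-1, PSBY and ATPC1 were at 0.18, 0.19, 0.20, 0.08, 0.16 and 0.14. All 8 were higher in GA4 in both pairs 1 and 2 (31.7% of all tested were) and 0 in both pairs 3 and 4 (28.3%). Their medians in pairs 1 to 4 were 0.39, 0.32, −0.04 and −0.14, and for LHCB4.1 the pair differences were 0.48, 0.52, −0.03 and −0.24. For the sigma factors, the proteins bound to the plastid polymerase and the Rubisco small subunits no probe set with a single listed gene was found, so they are not analysed here. The probe sets of AT5G15700, a phage-type polymerase gene, and AT5G14580, an organelle ribonuclease gene, lay below the filter and were not tested. Among markers of green tissue, LHCB4.1 read 14.30 in water and 14.48 in GA4, and LHCB4.3 11.79 and 11.97. LHCB4.2 went the other way, with 12.67 in water and 12.60 in GA4. The root genes EXPA7 and EXPA18 did not reach the filter level, and PYK10, a beta-glucosidase abundant in roots, read 13.49 in water and 13.56 in GA4.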

How the data were processed

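Gene expression was measured on 8 ATH1 arrays, 4 per treatment. The deposited values are signal intensities on a linear scale, 1 per probe set and array, which the authors made with MAS5, per the submitters' processing notes; its version and scaling target are not given in the sources used here. The table holds 22810 rows, of which 64 are controls. Non-control values below 1 (703) were set to 1, log2 was taken, and the 60% of probe sets with the highest mean were kept, 13648 in all. No detection calls were used, and the number of arrays limits the precision.

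GA4 was compared with water by limma 3.58.1 in R 4.3.3 (lmFit, eBayes with trend, two-sided, Benjamini-Hochberg over all tested probe sets, threshold 0.05), unpaired and, as an alternative, with the replicate number as a block. A second fit held the interaction of treatment with the replicate set (1 and 2, or 3 and 4), without pairing and, added after seeing the data, with the replicate number as a block. Values after ± in the text are SEs of the unpaired fits unless stated otherwise. For differences they come from the fit of GA4 against water, and for interactions from the interaction fit. Arrays of the same number in the 2 treatments deviated together from their group means (correlations of 0.616, 0.660, 0.676 and 0.685). Arrays of different numbers did so too within replicates 1 and 2 (0.367 and 0.392) and within replicates 3 and 4 (0.599 and 0.544). The pairing comes from the numbers in the labels, and the labels do not say what a number marks. They call the replicates biological without naming separate plants or days, so p-values measure the spread between these samples. The residual SD had a median of 0.342 log2 units without pairing and of 0.201 with the block. On simulated data of 13648 probe sets, which assumed the pairing, the unpaired fit recovered 21 of 100 changes of 1 log2 unit and 79 of 100 changes of 2, and the blocked fit 62 and 96. For the blocked interaction on 13648 probe sets, 0 and 0 of 100 were recovered with the residual SDs of the blocked fit, and 48 and 96 (with 14 false calls) with the interaction fit's own shrunken SDs.

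Genes came from the platform annotation and symbols and gene order from RefSeq's TAIR10.1 gene table. Probe sets whose name ends in _s_at (21 of the 150) can bind related transcripts, and copies of mitochondrial DNA in chromosome 2 can share probes with mitochondrial genes. The members, gene lists and tests were chosen with earlier results of these data known. Genes named with values were the brightest and dimmest of each complex, the 8 smallest p in each direction, the member with the widest replicate range per organelle and a short list of well-known genes (psbA, rbcL, psaA, psbD, rpoB, clpP, accD, atpB and matR among those listed). Alternatives covered the blocks, scaling, filter, floor, trend, array weights, subsets of replicates and leaving out each array or pair.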

Additional observations from a re-analysis of the deposited data

Results flagged for a closer look

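In 3 of the 88 groups of 4 arrays examined, an array lay apart from the other 3 by more than Dixon's limit, and chance alone gives about 1 in 20. Water replicate 1 of ccb203 was at 6.73 log2, with the nearest array at 3.88, and lies below the filter level. GA4 replicate 1 of clpP was at 14.53, with the nearest at 13.45, and GA4 replicate 1 of petB was at 14.70, with the nearest at 13.94.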

How the results depend on the processing

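The organelle probe sets gave 0 calls in every setting run except 1: without replicate 4 and with the replicate block, ndhE passed (adjusted p = 0.0432 in limma), so leaving out replicates gave 0 to 1. Calls over all tested probe sets went from 2 to 40 with the replicate block, 32 with a block on replicates 1 and 2 against 3 and 4, 1 with no filter, 1 with a stricter filter, 8 with array weights, 1 with replicates 1 and 2 alone, 9 with replicates 3 and 4 alone, 20 with quantile normalization and the block, 17 after rescaling on the hybridisation controls, and 1 to 51 when arrays or pairs were left out. Apart from ndhE without replicate 4, the replicate block changed no call of an organelle probe set in GA4 against water. The chloroplast median of 0.31 ran from 0.02 (without GA4 replicate 1) to 0.56 when arrays or pairs were left out and was −0.33 after rescaling on the hybridisation controls, where the median of all tested probe sets was −0.64; the mitochondrial median of 0.20 ran from −0.24 to 0.40, and was −0.23 with array weights and −0.45 after that rescaling. The interaction without pairing gave 0 calls as fitted and after quantile normalization. With the replicate block, added after seeing the data, it gave 55 calls, 21 of them members; after quantile normalization 40 and 17, after rescaling on the non-organelle probe sets 52 and 21, after rescaling on the hybridisation controls 6837 and 13, and when pairs were left out 7 to 1256 and 5 to 65 (lowest without replicate 3, highest without replicate 2). With array weights the chloroplast median of GA4 against water was 0.06, and 29 of 37 named members shrank by more than 1.5 times. Signs turned under quantile normalization, with and without the block, for psaB (−0.09), clpP (−0.06), petB (−0.06) and atpB (−0.02). With array weights they turned for nad4 (−0.22), orfX (−0.04), psaB (−0.02), clpP (−0.00), rpoB (−0.06), 245038_at (0.17) and rpl36 (0.12). With replicates 3 and 4 alone they turned for orfX (−0.07), psaB (−0.07), accD (−0.06), psbN (−0.22), rpoB (−0.16), atpB (−0.05), atpI (−0.17), atpH (−0.09), 245038_at (0.17), psbA (−0.24), psaA (−0.36) and psbD (−0.22). Rescaling on the hybridisation controls shifts all probe sets together, so signs that turned there follow that shift: nad4 (−0.64), orfX (−0.37), psaB (−0.54), ndhI (−0.46), rps4 (−0.38), rps15 (−0.30), clpP (−0.55), accD (−0.06), petB (−0.51), rpoA (−0.31), atpB (−0.47), atpI (−0.17), rbcL (−0.47), AT2G26500 (−0.32), ndhC (−0.35), matK (−0.21), psbA (−0.12), psaA (−0.37) and psbD (−0.37). Leaving out arrays or pairs gave ranges across 0 for orfX (−0.00 to 0.46), nad4 (−0.44 to 0.48), ndhI (−0.02 to 0.34), rps15 (−0.01 to 0.67), clpP (−0.20 to 0.23), petB (−0.08 to 0.22), rpl36 (−0.72 to 0.19), rpl14 (−0.63 to 0.26), psaB (−0.11 to 0.28), psaA (−0.27 to 0.73), atpB (−0.04 to 0.30), rbcL (−0.54 to 0.81), 245038_at (−0.46 to 0.01), 245043_at (−0.12 to 0.01) and psbA (−0.68 to 1.38). The cause of these changes was not tested. The rescaling on hybridisation controls and the quantile normalization with the block were added after seeing the data.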
